A study of Drosophila melanogaster with 8 samples.

Results

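The nuclear genes for the proteins of the mitochondrial ribosome were followed in sorted neurons of the Drosophila melanogaster brain. They were all genes whose symbol is mRpL or mRpS followed by a number, with or without further letters, which gave 73 of the 17868 genes in the count tables, 47 named for the large subunit (mRpL) and 26 named for the small subunit (mRpS). RNA was measured in 8 libraries, 4 from clk856 > EGFP and 4 from nSyb > EGFP flies, with 2 libraries at ZT14 and 2 at ZT2 for each genotype (ZT, Zeitgeber time, hours after lights on). In clk856 > EGFP flies the GAL4 line clk856 drives EGFP in most clock neurons, the cells that carry the circadian clock of the brain, and in nSyb > EGFP flies the GAL4 line nSyb drives it in neurons in general, which include the clock neurons. All flies were males about 2 weeks old, kept in a light-dark cycle without further treatment, and all libraries were made by the SMART-seq2 method from cells sorted by EGFP fluorescence out of dissociated brains pooled from several flies. Fewer cells went into a clk856 library than into an nSyb library, while the study's methods give more dissected brains for clk856 than for nSyb. The study's methods describe 2 sets of neurons collected from a dissociated sample but do not say whether the 2 libraries of a condition were such sets, so p values measure the spread between libraries, which may be in part technical.

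Mitochondria keep a small genome of their own, which in animals encodes a handful of core proteins of the respiratory chain and of ATP synthase together with the ribosomal RNAs and tRNAs. These proteins are made inside the organelle by a dedicated ribosome whose own proteins are all encoded in the nucleus, made in the cytosol and imported. Part of them descend from bacterial ribosomal proteins and the rest are found only in mitochondrial ribosomes. Neurons depend heavily on oxidative phosphorylation, and loss of mitochondrial ribosomal proteins is known in flies to impair it, as in the bang-sensitive mutants of tko.

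Reads assigned to genes numbered 4823985 to 8439193 in clk856 libraries and 7970236 to 8449829 in nSyb libraries. The 5 neuron markers (elav, nSyb, brp, Syt1 and CadN) summed to 2425 to 2541 RPM (the deposited unit, reads of a gene scaled to the depth of its library) in clk856 libraries and 2146 to 2379 RPM in nSyb libraries, and the 5 clock neuron markers (Clk, tim, per, vri and Pdf) to 241 to 1302 RPM in clk856 libraries and 7.42 to 30.9 RPM in nSyb libraries. Clk itself had 14.1 to 108 RPM in clk856 libraries, against 0 to 0.11 RPM in nSyb libraries, of which 2 had no Clk read. Several other properties moved with the genotype. The 6 glial markers (repo, alrm, moody, Gs2, Eaat1 and wrapper) summed to 36.3 to 68.4 RPM in clk856 libraries and 72.2 to 187 RPM in nSyb libraries, with Gs2 and Eaat1 carrying most of it. Not every glial marker was lower in clk856. repo had 0.14 to 5.68 RPM and moody 0.45 to 2.29 RPM in clk856 libraries. Both were without reads in 3 nSyb libraries and had 6.47 and 0.44 RPM in the nSyb ZT14 replicate 2. The share of reads that fell outside genes was 5.53% to 6.21% in clk856 libraries and 7.55% to 8.94% in nSyb libraries, and 8939 to 9991 genes had reads in clk856 libraries against 7937 to 8400 in nSyb libraries. Markers of photoreceptors, fat body and hemocytes stayed at or under 13.7 RPM in sum in every library. The part of these differences in the results below was not tested. The labels name no run or preparation date, and the deposited library names carry index numbers for nSyb and none for clk856, so a difference between runs cannot be told apart from the genotype in any comparison of clk856 with nSyb.

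Nearly all mitochondrial ribosomal protein genes were measured well above the limit of detection. Of the 73 genes, 72 had reads in all 8 libraries, between 49 and 2281 reads per gene and library, while a count of 3 reads, taken as the limit, was worth 0.161 to 0.299 RPM. These 72 genes passed the filter on low counts in each comparison. The remaining gene, mRpL53 (FBgn0050481, chromosome 2R, 13954195 to 13955664 in dm6, + strand), had no read in any library. All of its exon bases lie within exons of CG33155 on the same strand, and CG33155 had 0.87 to 3.29 RPM. Of 410 protein-coding genes in the annotation whose exon bases lie wholly within exons of other genes, 408 were without reads in all libraries, so the 0 of mRpL53 is not a measurement of its RNA. Among these 410 genes, 77 of the 78 that were covered only with the help of exons on the opposite strand were also without reads. Altogether 43 of the 73 genes share some exon bases with another gene and 10 share over 10% of them, so their levels are too low by the reads that fell on the shared bases.

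The members differed in mean level 12.9-fold in clk856 libraries, and 6.73-fold when exon bases shared with other genes were left out of the length. Per kilobase of exon, the mean level of the 72 genes ran from 8.10 to 104.6 RPM per kb in clk856 libraries (median 35.1 RPM per kb) and from 11.5 to 130.2 RPM per kb in nSyb libraries (median 41.5 RPM per kb). The medians of the subunits were close, at 35.6 RPM per kb for mRpL and 31.6 RPM per kb for mRpS genes in clk856 libraries and 41.9 RPM per kb for mRpL and 40.8 RPM per kb for mRpS genes in nSyb libraries. At the top in clk856 libraries stood mRpL33 with 104.6 RPM per kb, mRpS18A with 93.2 RPM per kb, mRpS11 with 69.4 RPM per kb, mRpL55 with 67.6 RPM per kb and mRpS25 with 61.7 RPM per kb. mRpL33 and mRpS11 belong to bacterial ribosomal protein families, mRpS11 to one in the platform of the small subunit. mRpS25 has no bacterial counterpart, flies need mRpL55 for growth, and the protein of mRpS18A, in spite of its name, sits in the large subunit in mammals. The lowest levels were those of mRpS24 (8.10 RPM per kb), mRpL21 (15.5 RPM per kb), mRpS21 (18.5 RPM per kb), mRpL43 (20.1 RPM per kb) and mRpL11 (20.6 RPM per kb). For 2 of these genes the shared exons matter: mRpS24 shares 55.3% of its exon bases with TBC1d7 and mRpS21 shares 48.0% with CG8870. Per kilobase of unshared exon, mRpS24 reached 18.1 RPM per kb and mRpS21 35.5 RPM per kb. mRpL17, which shares 23.6% of its exon bases, reached 78.2 RPM per kb and stood above mRpS11 on this scale, and mRpL21 became the lowest member.

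The order of the members was much alike in both genotypes. Over the 72 genes the mean levels per kb in clk856 and nSyb libraries had a Spearman correlation of 0.738 and, on the log2 scale, a Pearson correlation of 0.799. These are descriptions across genes, which share libraries, exon lengths and base composition. The spread between the 4 libraries of a genotype, as coefficient of variation, had a median over the members of 15.8% in clk856 and 24.1% in nSyb libraries, and it was lower in clk856 for 51 of the 72 genes. Tested genes within the same range of levels had medians of 22.1% in clk856 and 33.1% in nSyb libraries.

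**Figure D1:**
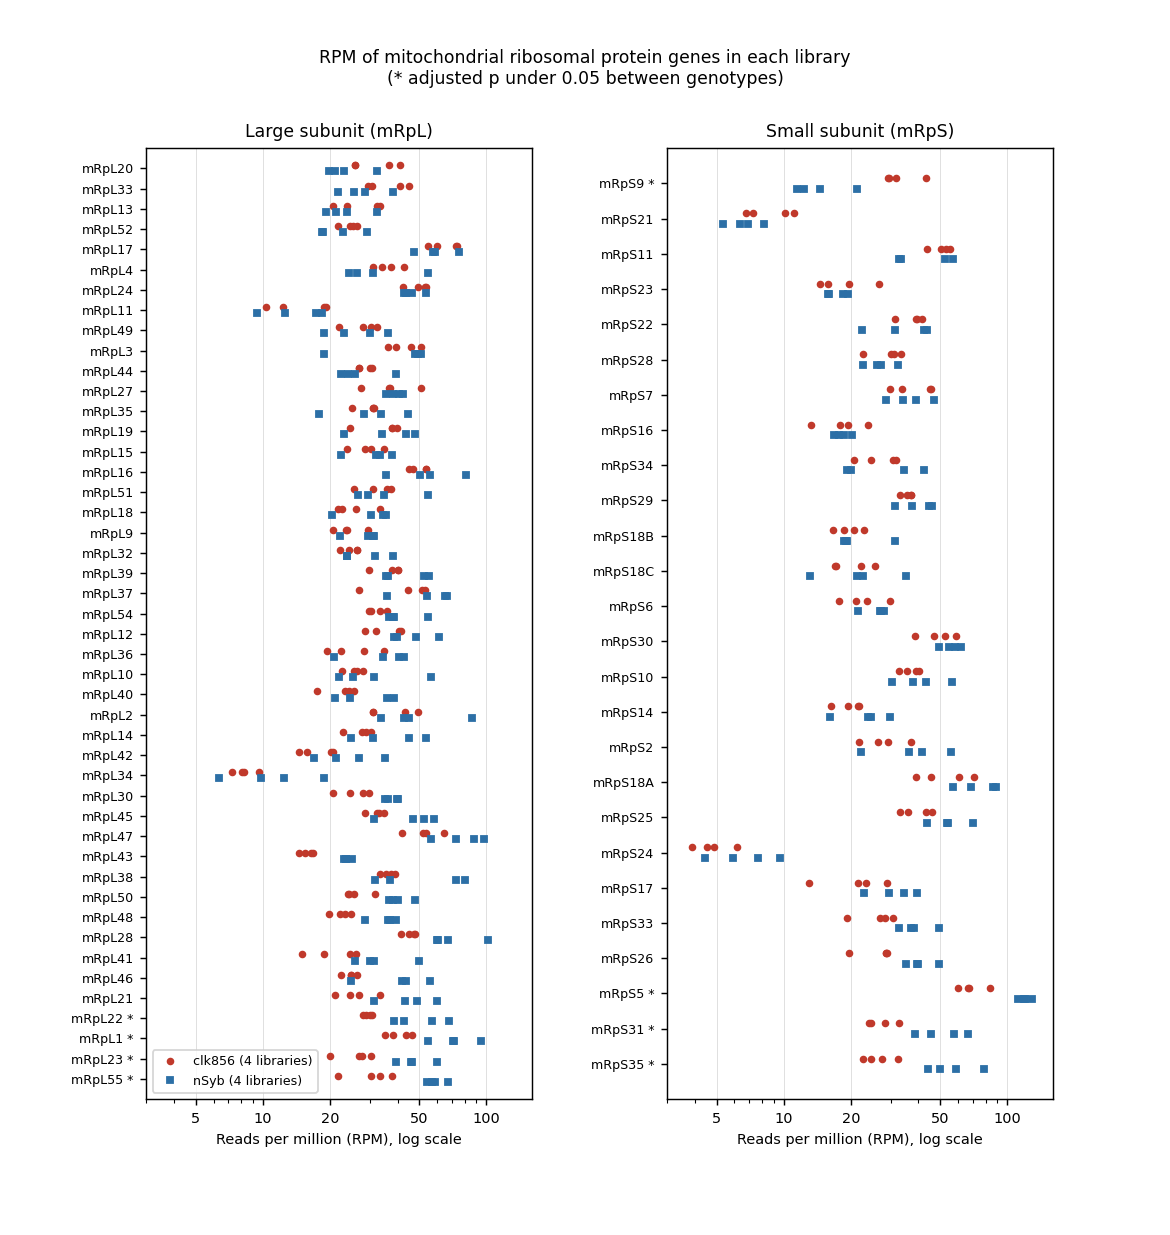
RPM of each of the 72 genes with reads, on a log axis, in 4 clk856 libraries (red circles) and 4 nSyb libraries (blue squares), with mRpL genes on the left and mRpS genes on the right, ordered by the log2 fold change of clk856 over nSyb from highest at the top. An asterisk marks the 8 genes past the threshold; in most rows the red and blue points overlap, and in the rows at the bottom the red points lie to the left.

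As a whole the group was somewhat lower in clock neurons than in neurons in general. Summed over all members, clk856 libraries held 2437 and 2417 RPM at ZT14 and 2004 and 2104 RPM at ZT2, against 2918 and 2580 RPM at ZT14 and 3190 and 2539 RPM at ZT2 in nSyb libraries. Every clk856 library lay below every nSyb library. The means were 2240 ± 219 RPM in clk856 and 2807 ± 307 RPM in nSyb libraries (SD, n = 4 each), a ratio of 0.798, with 0.792 for the mRpL and 0.809 for the mRpS sum. After TMM scaling, which sets most genes level between libraries, the ratio was 0.836 and the groups overlapped, with summed CPM (counts scaled by TMM library size) of 4457 to 5336 in clk856 and 5292 to 6611 in nSyb libraries. The members took 0.514% and 0.507% of gene reads at ZT14 and 0.423% and 0.438% at ZT2 in clk856 libraries, against 0.642% and 0.560% at ZT14 and 0.696% and 0.560% at ZT2 in nSyb libraries. These values are shares of a library and not amounts per cell. In sorted pools a smaller share of cells with the transcripts, less of them per cell and more RNA of other genes cannot be told apart. The ratio of summed mRpL over summed mRpS RPM was 1.83 ± 0.05 in clk856 and 1.86 ± 0.16 in nSyb libraries (SD, n = 4 each), so the balance of the subunits differed by less than the spread between libraries.

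**Figure D2:**
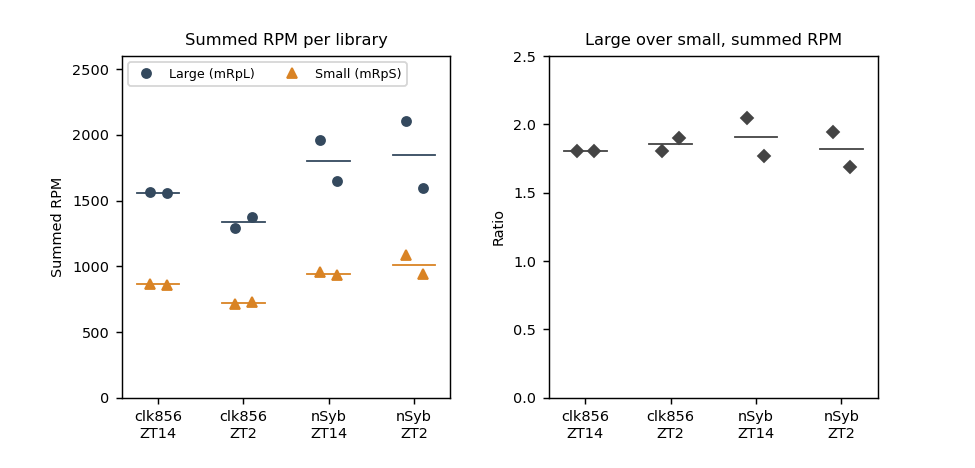
Left, RPM summed over mRpL genes (circles) and over mRpS genes (triangles) in each library, by genotype and time point; right, the ratio of the sums; horizontal lines are means of 2 libraries. The clk856 sums at ZT14 lie above those at ZT2, all clk856 mRpL and mRpS sums lie below the nSyb sums, and the ratio ranges from 1.69 to 2.04 in nSyb libraries and from 1.80 to 1.90 in clk856 libraries.

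Gene by gene, few members differed between the genotypes. With edgeR's quasi-likelihood test on the read counts of all 8 libraries and Benjamini-Hochberg adjustment over 7784 genes, 8 of the 72 members passed the threshold of an adjusted p of 0.05, 1 higher and 7 lower in clk856. Over all genes tested the test called 17.0% (10.3% higher and 6.69% lower in clk856), so the 7 lower members, 9.72% of those tested, stood little above the background and the count in both directions below it. The fold changes of the whole group leaned to one side: 52 of the 72 were negative, against 50.7% of all genes tested, and their median log2 fold change of clk856 over nSyb was -0.21, against -0.01 for all genes tested. In RPM, all 4 clk856 libraries lay below all 4 nSyb libraries for 15 members, 10 mRpL and 5 mRpS genes, and above them for 1 member. Of the genes other than the members, 12.2% lay below and 13.6% above in this way.

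Of the small subunit genes, mRpS9 rose and mRpS35, mRpS31 and mRpS5 fell. mRpS9 (FBgn0037529, chromosome 3R, 7889277 to 7902667, - strand) encodes a protein of a bacterial family whose tail reaches the tRNA in the ribosomal P site. It had 31.8 and 29.6 RPM at ZT14 and 29.2 and 43.2 RPM at ZT2 in clk856 libraries, against 11.5 and 21.3 RPM at ZT14 and 12.3 and 14.5 RPM at ZT2 in nSyb libraries. Its log2 fold change was 1.24 (SE 0.29, edgeR adjusted p = 0.0158), and without the clk856 ZT2 replicate 2, the library with the highest value, the edgeR adjusted p was 0.0682. mRpS9 is the only member called higher and one of the 10 with over 10% of shared exon: 25.1% of its exon bases overlap ArgRS-m on the opposite strand, which itself had an edgeR adjusted p of 0.691, and the gene wtrw lies within its span on the opposite strand, with a log2 fold change of 1.23 and an edgeR adjusted p of 0.562.

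mRpS35 (FBgn0035374, chromosome 3L, 2780899 to 2782105, + strand) had the largest fall. It encodes a protein of the head of the small subunit that bacteria lack. In clk856 libraries it had 27.4 and 32.2 RPM at ZT14 and 24.6 and 22.5 RPM at ZT2, against 58.7 and 44.3 RPM at ZT14 and 78.6 and 50.04 RPM at ZT2 in nSyb libraries. The highest clk856 value thus stayed below the lowest nSyb value. The log2 fold change was -1.05 (SE 0.22, edgeR adjusted p = 0.0100), and the call was kept when any 1 of the 8 libraries was left out.

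mRpS5 (FBgn0287187, chromosome 3L, 24537236 to 24543534, + strand), of the bacterial family that lines the entry of the mRNA, had the smallest adjusted p of all members. It had 83.4 and 67.1 RPM at ZT14 and 59.9 and 66.6 RPM at ZT2 in clk856 libraries, against 118 and 111 RPM at ZT14 and 129 and 119 RPM at ZT2 in nSyb libraries. The groups were apart by a wide gap, with means of 69.3 ± 9.97 RPM in clk856 and 119.6 ± 7.41 RPM in nSyb libraries (SD, n = 4 each). Its log2 fold change was -0.72 (SE 0.14, edgeR adjusted p = 0.00595), and this call too was kept without any 1 library. mRpS31 (FBgn0036557, chromosome 3L, 16005193 to 16006599, + strand), another protein of the small subunit without a bacterial counterpart, had 32.7 and 28.4 RPM at ZT14 and 24.0 and 24.5 RPM at ZT2 in clk856 libraries, against 66.5 and 57.6 RPM at ZT14 and 38.5 and 45.4 RPM at ZT2 in nSyb libraries. Its log2 fold change was -0.86 (SE 0.22, edgeR adjusted p = 0.0251). The call of mRpS31 was less steady and was lost in 5 of the 8 fits that left out 1 library, with edgeR adjusted p up to 0.0810.

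Of the large subunit genes, mRpL55, mRpL23, mRpL1 and mRpL22 fell, and edgeR and DESeq2 called none higher (12 of 46 had an unadjusted edgeR p under 0.05, all lower in clk856, against 29.6% of all genes tested in either direction). mRpL55 (FBgn0038678, chromosome 3R, 19094394 to 19094905, - strand) is a gene that flies need for growth. It had 33.5 and 37.6 RPM at ZT14 and 21.6 and 30.5 RPM at ZT2 in clk856 libraries, against 57.1 and 58.7 RPM at ZT14 and 67.2 and 54.4 RPM at ZT2 in nSyb libraries. The highest clk856 library stood well below the lowest nSyb library. The log2 fold change was -0.88 (SE 0.20, edgeR adjusted p = 0.0131), and the call was kept without any 1 library.

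The proteins of mRpL23 and mRpL22 belong to bacterial families that surround the tunnel through which the new peptide leaves. mRpL23 (FBgn0035335, chromosome 3L, 2372844 to 2373704, - strand) had 30.4 and 27.8 RPM at ZT14 and 19.9 and 26.8 RPM at ZT2 in clk856 libraries, against 46.2 and 46.1 RPM at ZT14 and 59.9 and 39.4 RPM at ZT2 in nSyb libraries, a log2 fold change of -0.80 (SE 0.21, edgeR adjusted p = 0.0270). mRpL22 (FBgn0030786, chromosome X, 16783933 to 16785092, + strand) had 29.0 and 30.7 RPM at ZT14 and 27.9 RPM in replicate 1 at ZT2 in clk856 libraries, with replicate 2 at ZT2 between these, against 57.0 and 42.6 RPM at ZT14 and 67.9 and 38.6 RPM at ZT2 in nSyb libraries, a log2 fold change of -0.74 (SE 0.21, edgeR adjusted p = 0.0384). For mRpL22 the clk856 libraries were close together and the nSyb libraries were not. Left out 1 at a time, 4 of the 8 libraries took away the call of mRpL23 and 6 of the 8 that of mRpL22, with edgeR adjusted p up to 0.0787 and 0.0984.

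mRpL1 (FBgn0037566, chromosome 3R, 8301440 to 8302770, + strand) encodes the protein of the mobile stalk where the tRNA leaves. Its values were 35.1 and 43.6 RPM at ZT14 and 46.3 and 38.0 RPM at ZT2 in clk856 libraries, against 54.8 and 70.7 RPM at ZT14 and 94.3 and 71.8 RPM at ZT2 in nSyb libraries. The log2 fold change was -0.77 (SE 0.19, edgeR adjusted p = 0.0220), and 3 of the 8 fits without 1 library lost the call. For each of the 8 called genes the libraries of the genotypes did not overlap in RPM. With no overlap, an exact two-sided permutation test of the RPM means must give p = 0.0286, the smallest that 4 against 4 libraries allow. The test therefore adds no support to the calls. The same p was found for mRpL28, mRpL30, mRpL43, mRpL48, mRpL50, mRpL54, mRpS26 and mRpS33, which edgeR did not call.

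The threshold fell within a run of like values. Just inside it lay mRpL22, with an edgeR adjusted p of 0.0384, and just outside it mRpL28 with 0.0613, mRpL21 with 0.0740 and mRpL50 with 0.0875, all 3 with lower values in clk856. Without 1 library the number of members called ranged from 3, without the clk856 ZT2 replicate 2, to 9, with 5 called without the clk856 ZT2 replicate 1 and 4 without the clk856 ZT14 replicate 2. Over the whole table the fits without 1 library called 942 to 1380 genes, against 1326 with all 8 libraries. DESeq2 called 17 members, the same 8 and 9 more, all 9 of them lower in clk856. It also called more genes over the whole table, 2123 of 7784, with 1166 higher and 957 lower in clk856.

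The lean toward lower values in clk856 was small with ZT14 libraries alone and larger with ZT2 libraries alone, a difference that was tested gene by gene as the interaction of genotype and time. With ZT14 libraries alone the median log2 fold change of the members was -0.04 with 40 of 72 negative, and with ZT2 libraries alone it was -0.38 with 55 of 72 negative. With 2 libraries against 2, edgeR called no member at either time point. Over the whole table it called 340 genes (4.18%) at ZT14 and 8 genes (0.1%) at ZT2. An unadjusted edgeR p under 0.05 was found for 8 members at ZT14 and 11 at ZT2. The share of all genes under that cut was not worked out for these fits, so nothing is read from these counts. The 8 members called with all 8 libraries kept their direction at both time points. Since their clk856 and nSyb libraries do not overlap in RPM, this was all but fixed beforehand and adds no support.

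Between the subunits the genotype difference was not clearly unequal. The median log2 fold change was -0.32 for the 46 mRpL genes, with 34 negative, and -0.12 for the 26 mRpS genes, with 18 negative. The mRpL median lay 0.20 below the mRpS median, but without the nSyb ZT14 replicate 1 the difference of the medians was -0.04, and likewise -0.04 without the nSyb ZT2 replicate 1. With mRpS18A and mRpS30 moved to the large subunit, where their mammalian counterparts are found, the medians were -0.32 for 48 and -0.11 for 24 genes. Split by ancestry, as the mammalian proteins are classed, the 28 measured genes found only in mitochondrial ribosomes had a median of -0.37 with 23 negative, and the 44 genes of bacterial families one of -0.13 with 29 negative. The members are spread over all major chromosome arms, and medians ran from -0.35 for 17 genes on 3L to -0.03 for 12 genes on 2L. The 3L arm held 4 of the 7 lower calls, but the share of all 3L genes called lower was not worked out. None of these splits was tested, since genes are not replicates. Among the 63 members that share at most 10% of their exon bases, the median was -0.30 with 47 negative.

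The other ribosome of the cell went the opposite way. Of 83 cytosolic ribosomal protein genes tested, 79 rose in clk856, and edgeR and DESeq2 called none lower (80 had an unadjusted edgeR p under 0.05, all higher), with a median log2 fold change of 1.31. RpS21, RpS4 and RpL32 were the highest, with 112.6 ± 14.5 RPM in clk856 and 22.0 ± 8.73 RPM in nSyb libraries (SD, n = 4 each) for RpS21, a log2 fold change of 2.43 (SE 0.26, edgeR adjusted p = 0.000196), and log2 fold changes of 2.08 for RpS4 and 2.07 for RpL32. The lists of genes with which the mitochondrial ribosome works showed no such rise, and the translation factors leaned lower, as the members did. None of the 9 tested mitochondrial translation factors (median -0.29, with 8 of 9 negative) and none of the 18 tested mitochondrial tRNA synthetases and their helpers (median 0.09) passed the test in edgeR (0 and 1 had an unadjusted p under 0.05, and DESeq2 called 0 and 1). Nor did tko and bonsai, which encode small subunit proteins of the mitochondrial ribosome under other names and had log2 fold changes of -0.37 and 0.32.

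Of 12 tested genes of mitochondrial DNA and RNA upkeep (median -0.12), bsf rose, which encodes an RNA-binding protein of mitochondria. This 1 call, 8.33% of the list, was not above the 10.3% of all genes tested that were called higher. bsf had 65.9 ± 10.3 RPM in clk856 and 28.9 ± 13.7 RPM in nSyb libraries (SD, n = 4 each), a log2 fold change of 1.25 (SE 0.34, edgeR adjusted p = 0.0287). Of 12 tested import genes (median 0.00), Tim17a2 rose, again 8.33% of the list, with 2.35 ± 1.21 RPM in clk856 libraries (SD, n = 4) and no read in any nSyb library, at least 14.1-fold higher when 3 reads per nSyb library are taken as the limit (edgeR adjusted p = 0.0104). The 58 tested nuclear genes of the respiratory chain and ATP synthase, whose proteins join those made by the mitochondrial ribosome, had a median of -0.01, with 9 higher and 1 lower in clk856, 17.2% called against the 17.0% of all genes tested. COX7C (0.76, edgeR adjusted p = 0.00352), ND-AGGG (0.72, edgeR adjusted p = 0.0313) and COX8 (0.66, edgeR adjusted p = 0.00307) had the highest log2 fold changes among those called, and ND-51 the only called fall, -0.35 (edgeR adjusted p = 0.0432). The differences between the lists were not tested.

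**Figure D3:**
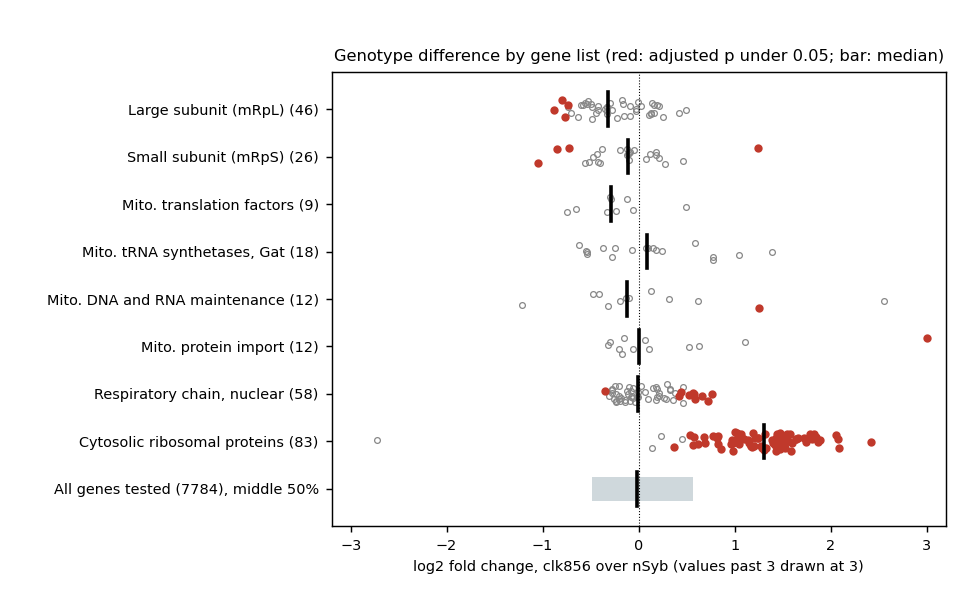
log2 fold change of clk856 over nSyb for each tested gene of 8 gene lists, with the number of genes in brackets; filled red points passed the threshold, black bars are medians, and the grey box is the middle 50% of all genes tested. The bars of the mRpL and mRpS genes stand at -0.32 and -0.12, that of the cytosolic ribosomal protein genes at 1.31; Tim17a2, without reads in nSyb, is drawn at the edge.

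Scaling moved these values by a common amount. Without TMM scaling the median over all tested genes was -0.14 on the log2 scale and that of the members -0.33, with 11 members called lower and 1 higher. Over all genes, 675 were then called higher and 787 lower in clk856, against 805 higher and 521 lower with TMM scaling.

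In clock neurons the members were mostly higher at ZT14 than at ZT2, by small amounts, none of which passed the test. With edgeR over the 4 clk856 libraries and 8188 genes, 0.0244% of all genes were called, and 0 of the 72 members (5 members had an unadjusted p under 0.05, against 6.77% of all genes tested). DESeq2 called 1 member, and over all 8188 genes it called 128 higher and 149 lower at ZT14. The log2 fold change of ZT14 over ZT2 was positive for 63 of the 72 members, against 52.2% of all genes tested, with a median of 0.25, against 0.02 for all genes tested. In RPM, both ZT14 libraries lay above both ZT2 libraries for 44 members, 28 mRpL and 16 mRpS genes, against 20.6% of the other genes tested, and below them for 1 member, against 17.6%. The medians of the subunits were 0.24 for mRpL and 0.29 for mRpS genes, and the summed RPM at ZT14 was 1.18 times that at ZT2. Without any 1 of the 4 libraries the median of the members stayed between 0.18 and 0.30. The lean of the group is given as a description, with no p, since the members share their libraries and are not replicates.

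The members at the ends of this range were mRpL11 and mRpS23. mRpL11, of the bacterial family at the base of the stalk that receives the translation factors, had 18.7 and 19.2 RPM at ZT14 and 10.3 and 12.3 RPM at ZT2 in clk856 libraries, a log2 fold change of 0.75 (SE 0.33, edgeR adjusted p = 0.756). The pairs did not overlap, but the adjusted p was far from the threshold. mRpS23, a small subunit protein without a bacterial counterpart, had 15.8 and 19.5 RPM at ZT14 and 26.7 and 14.6 RPM at ZT2, a log2 fold change of -0.24 (SE 0.38, edgeR adjusted p = 0.949). Its direction turned to 0.27 without the clk856 ZT2 replicate 1. mRpS18A was the member called by DESeq2 and is named for that after its values were seen. It had 60.9 and 71.2 RPM at ZT14 and 45.6 and 38.9 RPM at ZT2, a log2 fold change of 0.64 (SE 0.19, edgeR adjusted p = 0.690) and, from DESeq2, 0.62 (SE 0.19, DESeq2 adjusted p = 0.0318).

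Among the other lists of mitochondrial genes in clock neurons, some had medians near that of the members and some did not. Of the nuclear respiratory chain and ATP synthase genes, 56 of 59 tested were positive with a median of 0.23, and of the import genes 11 of 12 with a median of 0.27. The genes of mitochondrial DNA and RNA upkeep had a median of 0.23 with 8 of 12 positive. The mitochondrial translation factors had a median of -0.11 with 4 of 9 positive, the mitochondrial tRNA synthetases one of 0.03 with 9 of 18 positive, and the cytosolic ribosomal protein genes one of 0.06. edgeR called none of these genes between the time points, 3 respiratory chain genes having an unadjusted p under 0.05, against 6.77% of all genes tested. DESeq2 called 3 respiratory chain genes, and over all 8188 genes 128 higher and 149 lower at ZT14.

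In neurons in general no such lean was seen, and the libraries were more scattered. With edgeR over the 4 nSyb libraries, 0 of 72 members and 0.0% of 7671 genes were called (0 members and 3.95% of all genes tested had an unadjusted p under 0.05, and DESeq2 called 0 members and 224 genes, with 7 members at an unadjusted p under 0.05). Of the 72 members, 30 were positive, with a median log2 fold change of ZT14 over ZT2 of -0.08 (-0.05 for mRpL and -0.12 for mRpS genes), and the summed RPM at ZT14 was 0.959 times that at ZT2. Both ZT14 libraries lay above both ZT2 libraries for 10 members, against 17.1% of the other genes tested, and below them for 16, against 15.3%. The highest value was that of mRpL10, which anchors the stalk, with 56.5 and 31.3 RPM at ZT14 and 25.3 and 21.8 RPM at ZT2, a log2 fold change of 0.89 (SE 0.47, edgeR adjusted p = 0.9999). The lowest was that of mRpS34, a small subunit protein without a bacterial counterpart, with 20.02 and 19.2 RPM at ZT14 and 34.5 and 42.3 RPM at ZT2, a log2 fold change of -0.99 (SE 0.45, edgeR adjusted p = 0.9999). Typical standard errors show the difference in spread: the median SE over the members was 0.25 in clk856 and 0.45 in nSyb.

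Whether the time effect differed between the genotypes was asked with the interaction term of 1 fit over all 8 libraries. The test called 0 of 72 members and 0.0112% of 8926 genes (5 members and 6.51% of all genes tested had an unadjusted p under 0.05). DESeq2 called 2 members, and over all 8926 genes it called 64 with a positive and 114 with a negative value. The time effect in clk856 minus that in nSyb was positive for 52 of the 72 members, with a median of 0.28, against 0.01 for all genes tested, and medians of 0.26 for mRpL and 0.39 for mRpS genes. Without 1 library the median of the members ranged from 0.16 to 0.44. The highest value was that of mRpS34, 1.44 (SE 0.46, edgeR adjusted p = 0.746). In clk856 libraries mRpS34 had 30.7 and 31.6 RPM at ZT14 and 20.5 and 24.4 RPM at ZT2, so that its pairs lay in opposite order in the genotypes. The lowest was that of mRpL16, of a bacterial family close to the tRNAs in the large subunit, -0.91 (SE 0.39, edgeR adjusted p = 0.755), with 47.0 and 44.9 RPM at ZT14 and 53.9 and 53.5 RPM at ZT2 in clk856 libraries and 81.0 and 55.9 RPM at ZT14 and 50.2 and 35.5 RPM at ZT2 in nSyb libraries. DESeq2 called mRpS34 (DESeq2 adjusted p = 0.0463) and mRpS18A (DESeq2 adjusted p = 0.0121), the second with a log2 value of 1.12 in edgeR (SE 0.30, edgeR adjusted p = 0.674). In nSyb libraries mRpS18A had 56.8 and 68.5 RPM at ZT14 and 88.6 and 86.2 RPM at ZT2, again in the opposite order to clk856 libraries.

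**Figure D4:**
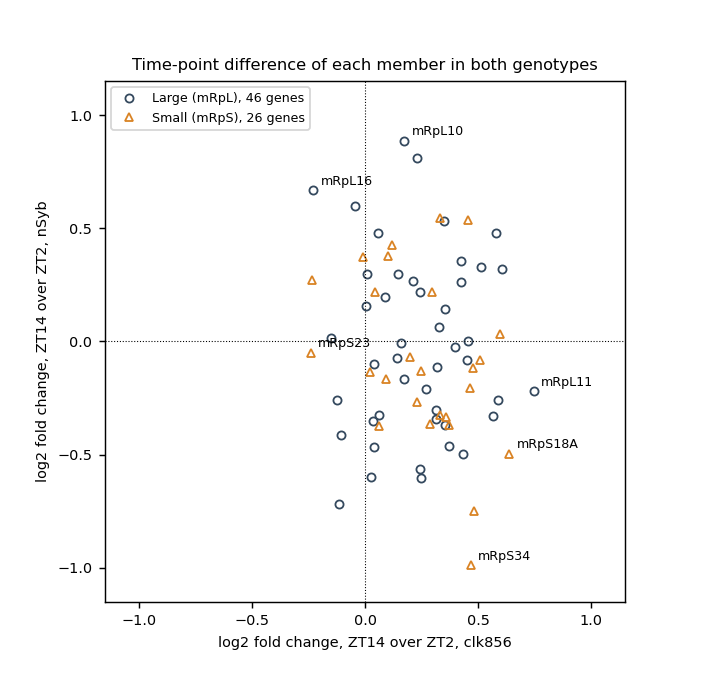
log2 fold change of ZT14 over ZT2 in clk856 (horizontal) and in nSyb (vertical) for 46 mRpL genes (circles) and 26 mRpS genes (triangles); the members named in the text are labelled, and none of the plotted values passed the threshold. Of the 72 points, 63 lie right of 0, 38 of them below 0 on the vertical axis and 25 above.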

How the data were processed

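The study's authors aligned the reads to dm6 with STAR after base calling with bcl2fastq 2.20 and removed PCR duplicates with Picard. The raw counts per gene were deposited by the authors for each of the 8 libraries, and the annotation release, counting program and strand setting are not given in the sources used here. The RPM values deposited by the authors are these counts divided by a larger total than the reads listed for the library (1.84 to 1.88 times as large), so RPM values compare libraries but their sum falls short of the nominal total. The deposited RPKM values, which use a length that includes introns for most genes, were not used. Levels per kilobase used exon lengths of the Ensembl BDGP6.54 annotation of dm6, in which all 73 members were matched by symbol. Unassigned reads stayed out of the library sizes. Ambiguous reads made up 5.67% to 5.95% of clk856 and 5.83% to 6.10% of nSyb libraries, and the shares outside genes stand with the results.

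Counts were tested with edgeR 4.0.16 in R 4.3.3 (TMM, filterByExpr with a minimum count of 10, quasi-likelihood test, Benjamini-Hochberg adjustment over all genes tested, threshold 0.05), on 8 libraries for the genotypes and the interaction and on 4 for each time comparison. DESeq2 1.42.0, other scalings, filters and covariates, and fits without single libraries were the alternatives. Scripts were tested on simulated data. Members and gene lists were chosen with earlier results of these data known. Members are named when called with no overlap of the genotypes in RPM, when at either end of a time comparison or of the level per kb in clk856, or when without reads. Others are named for a value near the threshold, shared exons, the subunit of the mammalian counterpart, the exact permutation test or a DESeq2 call. In related lists, the 3 highest and 3 lowest genes called are named. Limits of detection cover counting error only.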

Additional observations from a re-analysis of the deposited data

Results flagged for a closer look

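The ratio of summed mRpL over summed mRpS RPM in the clk856 ZT2 replicate 2 was 1.90, against 1.80 to 1.81 in the other 3 clk856 libraries. Its gap to the nearest of them was 0.952 of the range of the 4 libraries, above Dixon's critical value for 4 samples. The values of 22 named genes and of the summed measures were examined in this way in 48 groups of 4 libraries, and chance flags about 1 group in 20. In the nSyb libraries the ratio was 2.04 and 1.77 at ZT14 and 1.95 and 1.69 at ZT2, a wider range than in clk856. This clk856 library also had the lowest number of reads on genes, 4823985, and without it 3 members were called between the genotypes, against 8 with it. A loss of calls was not particular to it. Without the clk856 ZT2 replicate 1, 5 were called, without the ZT14 replicate 1, 6, and without the ZT14 replicate 2, 4. The fits without 1 clk856 library also called fewer genes over the whole table, 942 to 1016, against 1326 with all 8 libraries.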

How the results depend on the processing

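Named members kept their direction under every alternative run, except mRpS23 between the time points in clk856 (-0.613 to 0.266 without single libraries, 0.266 without the clk856 ZT2 replicate 1). For the 8 members called between the genotypes, which do not overlap in RPM, a kept direction without some libraries was all but fixed beforehand. Between the genotypes, DESeq2 called 2123 genes and 17 members (16 lower), and scaling by library size alone 11 lower members. ZT2 libraries alone gave 8 genes and 0 members (0 lower, 0 higher), a member median of -0.38 and a difference of the mRpL and mRpS medians of -0.076. ZT14 libraries alone gave 340 genes and 0 members (0 lower, 0 higher) and a member median of -0.037. Without members sharing over 10% of exon bases, 0 were called higher. Without single libraries, 942 to 1380 genes and 3 to 9 members were called (3 to 8 lower, 0 to 1 higher), and the difference of the subunit medians ranged from -0.215 to -0.041. The other scalings, filters, tests and covariates over all 8 libraries kept the 8 calls, except that mRpL22 lost its call without a filter and with time point as covariate.

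Between the time points in clk856, all-gene calls were 81 without a filter, 97 with the likelihood ratio test, 277 with DESeq2 and 0 in the fit of 4 conditions, and DESeq2 called 1 member. In nSyb, all-gene calls were 6 with the likelihood ratio test, 224 with DESeq2, 1 in the fit of 4 conditions and 0 to 1 without single libraries, and the member median ranged from -0.17 to 0.05. For the interaction they were 98 without a filter, 178 with DESeq2 and 0 to 85 without single libraries (85 without the nSyb ZT2 replicate 2), and DESeq2 called 2 members, mRpS34 among them (1.45). The member median of the interaction ranged from 0.16 to 0.44 and the difference of its subunit medians from -0.223 to -0.01 without single libraries. Where an alternative uses fewer libraries, part of the loss of calls follows from that, and otherwise the cause was not tested.

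Replicate numbers did not pair the samples, as same-numbered libraries had deviations correlated between -0.026 and 0.031 over 7784 genes. With the replicate number as a block, 8 members and 1265 genes were called between the genotypes, and 4 genes between the time points in clk856. The members had at least 49 reads in each library apart from mRpL53. Over all 7784 genes, with the time points pooled, edgeR's common estimate of the spread was 0.37 in clk856 and 0.83 in nSyb libraries, as a coefficient of variation. The median over genes of the coefficient of variation of RPM is a different measure. It was 15.8% in clk856 and 24.1% in nSyb libraries for the members. Tested genes within the same range of levels had medians of 22.1% in clk856 and 33.1% in nSyb libraries. Whether depth or spread limited the calls was not tested.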
